A study of Mus musculus with 12 samples.

Results

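Dusp1, Dusp4, Dusp5, Dusp6, Dusp7, Dusp8, Dusp10, Dusp14 and Dusp16 encode dual-specificity phosphatases, enzymes that remove phosphate from both the threonine and the tyrosine of an active MAP kinase. They were chosen by name, and their order below follows where each enzyme acts and on which kinase. All 9 were found by symbol among the 18208 genes of the RNA-seq table. By Ensembl gene identifier they held 60 of the 147438 distinct positions, each 100 nt wide, at which the authors counted reads cross-linked to the RNA-binding protein hnRNP H (CLIP-seq).

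MAP kinases such as ERK, JNK and p38 carry signals from receptors to the nucleus, and dual-specificity phosphatases end that signal. Several of these phosphatases are themselves switched on by the pathway they silence, which makes them feedback inhibitors. In striatal projection neurons, dopamine and glutamate together activate ERK, and psychostimulants are known to do so as well. hnRNP H is known as a splicing regulator that binds runs of guanine.

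All animals were wild-type C57BL/6J mice aged 50 to 100 days, from crosses of males heterozygous for an Hnrnph1 mutation with C57BL/6J females. Each received intraperitoneal saline (10 ml/kg) on days 1 and 2, and whole striata were taken 30 min after an injection on day 3. That injection was saline in one group and methamphetamine, a psychostimulant, at 2 mg/kg in the other. A replicate was a pool of striata from 4 mice, 2 females and 2 males, and there were 3 pools per treatment. Part of each pool was set aside for RNA-seq before cross-linking, so 6 RNA-seq and 6 CLIP libraries came from the same 6 pools, and the mutant mice were not analysed here. Pools hide the spread between mice, and the level of a transcript in whole striatum cannot tell fewer cells of a type from less RNA per cell.

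RNA-seq libraries held 3935160 to 5091839 reads and CLIP libraries 423057 to 1635338 reads over all positions. On the first principal component of the RNA-seq values, which held 65.6% of the variance of 7853 genes, saline replicates 1 and 3 and methamphetamine replicate 2 lay apart from the other 3 libraries. These are called library sets A and B below. They were defined from the data, the same 3 and 3 libraries separated in CLIP, and the labels name no batch that follows them. Of the 18208 genes, 38.8% did not overlap between the sets. The 8 striatal projection neuron markers were all detected and summed to 6268 to 7314 CPM in set A and 4385 to 4964 CPM in set B. Of the 8, 6 were lower in set B without overlap, Ppp1r1b among them. The other 2, Drd1 and Penk, overlapped between the sets. Both were lower after methamphetamine without overlap, as were 3.58% of all genes. The 6 choroid plexus markers, led by Ttr, summed to 4955 CPM in methamphetamine replicate 2 and to 60.2 to 222 CPM in the other 5 libraries, and Kcnj13 had no read in methamphetamine replicate 3. The 6 cortical excitatory neuron markers summed to 178 to 522 CPM after saline and 429 to 833 CPM after methamphetamine. These sums and those of the astrocyte, oligodendrocyte, microglia and endothelial lists overlapped between treatments. Between the sets, the cortical sums did not overlap (178 to 429 CPM in set A, 440 to 833 in set B). Nor did those of astrocytes (464 to 576 against 647 to 770), microglia (206 to 226 against 243 to 281) and endothelium (53.0 to 68.8 against 77.4 to 106). Oligodendrocyte sums overlapped between the sets.

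Per kilobase of the longest transcript, the JNK and p38 phosphatase gene Dusp8 had the highest RNA level of the 9, with a mean of 59.3 ± 8.30 CPM per kilobase (SD, n = 6 libraries). Dusp7, a cytoplasmic ERK phosphatase, followed at 36.7 ± 3.60. Dusp14 at 24.5 ± 3.91, Dusp6 at 21.8 ± 2.96 and Dusp1 at 18.7 ± 4.87 came next, and the ranges of neighbours among these 3 overlapped. Dusp5 had 9.63 ± 1.42. Dusp4 at 3.35 ± 1.06, Dusp10 at 2.63 ± 1.04 and Dusp16 at 2.51 ± 0.396 were the lowest, again with overlapping ranges between neighbours. Dusp8 lay at percentile 94.6 and Dusp16 at percentile 43.3 of the 17927 genes with a length, whose median was 3.65 on the same scale.

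The first question was how the RNA of each phosphatase differed after methamphetamine. With limma on the log2 CPM of all genes and Benjamini-Hochberg adjustment, 0 of the 9 phosphatase genes and 0.0% of all 18208 genes passed an adjusted p of 0.05. At an unadjusted p under 0.05 stood 1 of the 9, Dusp1, against 1.52% of all genes in either direction (276 genes) and 0.555% in the higher direction. The same gene was the only one of the 9 whose treatments did not overlap, where 6.01% of all genes did not overlap in either direction and 2.44% were higher without overlap. The change was positive for 6 of the 9 genes and negative for 3, with a median of 0.27 on the log2 scale beside a median of 0.0020 and a positive share of 50.4% over all genes. The median of the 9 was 0.08 among the set A libraries, 0.48 among those of set B and 0.16 with the set as a covariate. Coordinates are on mm10, and values below run in the order saline replicates 1, 2 and 3, then methamphetamine replicates 1, 2 and 3.

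**Figure D1:**
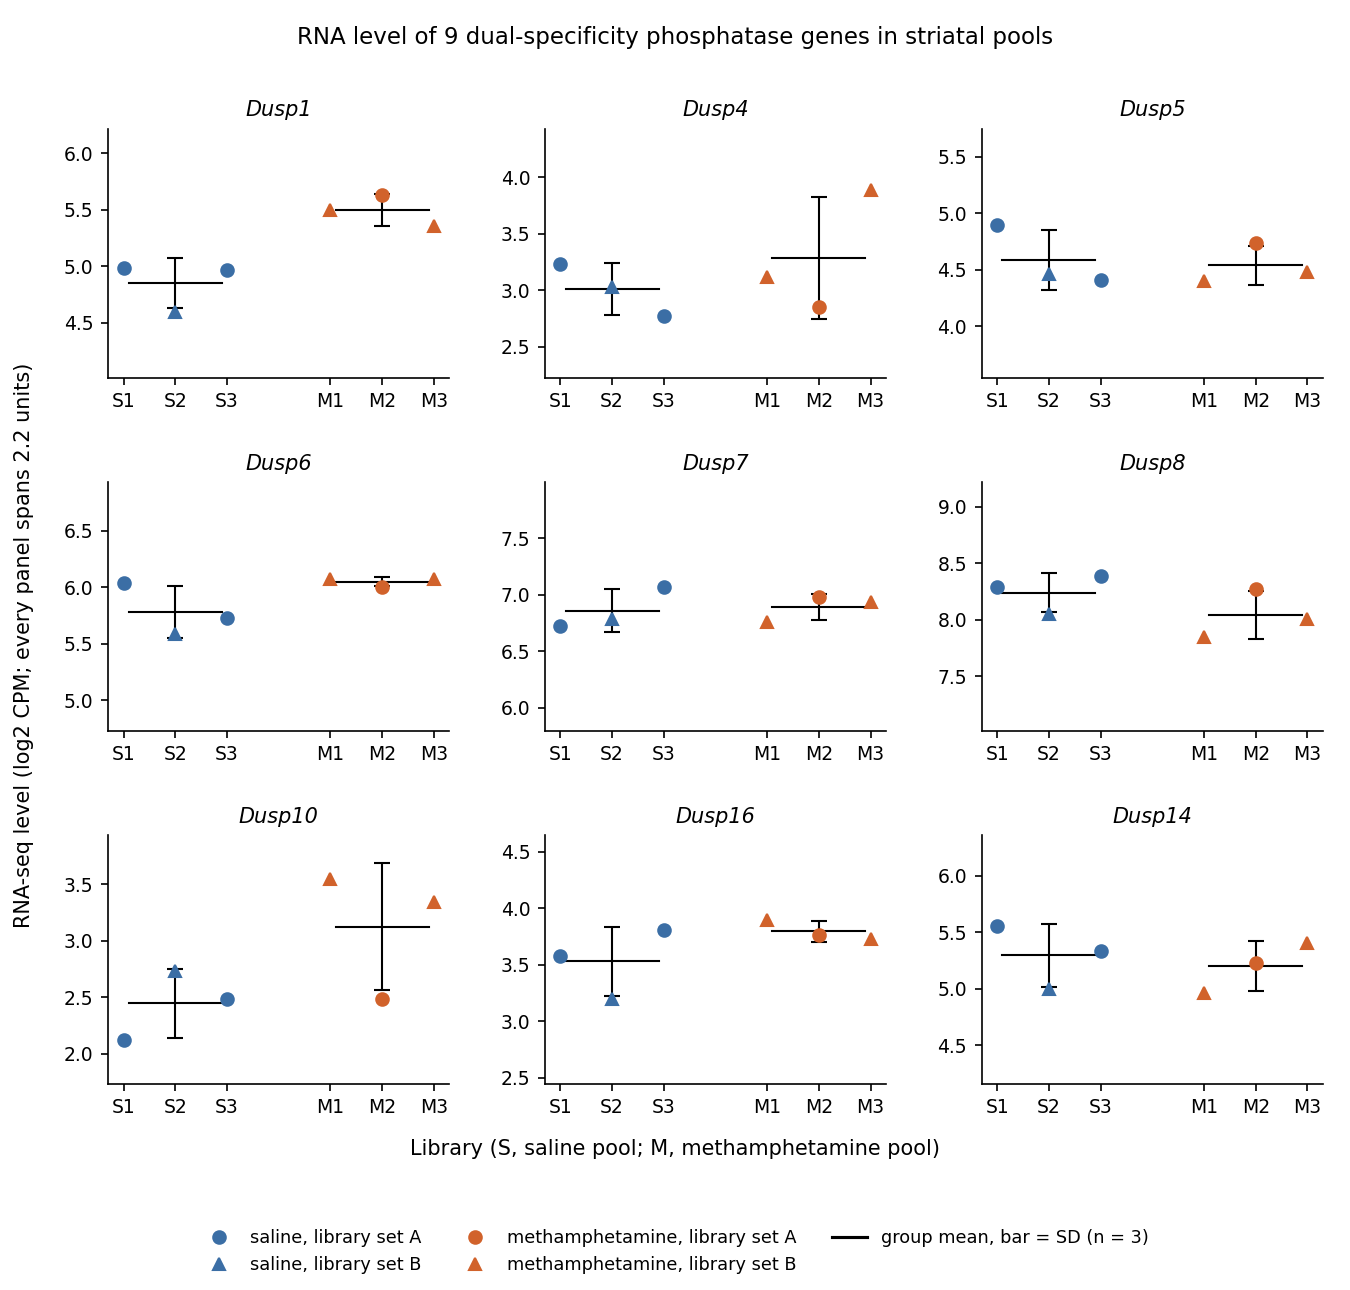
RNA-seq level in log2 CPM (vertical axis, same span in every panel) of the 9 phosphatase genes in each of the 6 libraries (horizontal axis), with circles for library set A, triangles for set B, lines for group means and bars for SD (n = 3). For Dusp1 the lowest methamphetamine library (5.36) lies above the highest saline library (4.98), and for the other 8 genes the treatments overlap.

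Dusp1, Dusp4 and Dusp5 encode nuclear phosphatases. Dusp1 is a classic immediate early gene whose product acts on p38, JNK and ERK. Dusp1 (chr17:26505590-26562128, minus strand) had 4.98, 4.60 and 4.97 log2 CPM after saline and 5.50, 5.63 and 5.36 after methamphetamine, from 112, 114 and 126 reads against 226, 217 and 212. Every methamphetamine library lay above every saline library. The limma change was 0.65 ± 0.18 (SE), a fold of 1.57 with a 95% interval of 1.17 to 2.09, with an unadjusted p of 0.00650 that ranked 18th of 18208 genes and an adjusted p of 0.9998. The difference of means was 0.66 among the set A libraries and 0.83 among those of set B, where one treatment has a single library in each case. With the set as a covariate, limma gave 0.75 ± 0.14 (unadjusted p 0.00042, adjusted p 0.9993). Leaving out each library in turn gave 0.52 to 0.72, and without methamphetamine replicate 2, the library with the choroid plexus reads, the change was 0.58. The part of the cell type markers in this difference was not tested beyond that.

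The promoter of Dusp1 is shown because its letters hold 2 of the motifs searched for. Promoter windows were the 250 bases before the RefSeq start on GRCm38.p6, found for 8 of the 9 genes. The motifs were the cAMP response element TGACGTCA and the E-box CACGTG, which read the same on both strands, and the CArG box of serum response factor. The first was present in 1.55% of the 32851 RefSeq windows, the E-box in 6.02% and the CArG box in 1.47%. The Dusp1 window held 1 cAMP response element, which begins 143 bases before the start, and 1 E-box, 126 bases before it. In the sequence at chr17:26508520-26508722, minus strand, capitals mark these motifs, and the last 47 bases of the window, annotated as 5′ UTR by GENCODE, are left out.
Dusp1 promoter: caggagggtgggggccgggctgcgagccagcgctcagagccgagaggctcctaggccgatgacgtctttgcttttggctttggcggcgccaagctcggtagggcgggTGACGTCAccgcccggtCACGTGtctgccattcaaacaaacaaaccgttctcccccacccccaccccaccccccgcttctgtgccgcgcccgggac

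Dusp4 (chr8:34807297-34819894, plus strand) had 3.23, 3.02 and 2.77 log2 CPM after saline and 3.12, 2.85 and 3.88 after methamphetamine. Methamphetamine replicate 3 alone was above the saline libraries, and the other 2 were within their range. The limma change was 0.27 ± 0.33 (SE; unadjusted p 0.426), and it was -0.026 without methamphetamine replicate 3. Dusp5 (chr19:53529109-53542431, plus strand), which encodes an ERK-specific phosphatase, had 4.89, 4.46 and 4.41 log2 CPM after saline and 4.40, 4.73 and 4.48 after methamphetamine. The treatments overlapped almost entirely, with a limma change of -0.05 ± 0.21 (unadjusted p 0.817) and a 95% interval of -0.53 to 0.43. A transcript annotated antisense to Dusp5 overlaps it, and genes on the opposite strand also overlap Dusp1, Dusp8, Dusp10 and Dusp16. Whether counting used strand is not given in the sources used here, so reads of such pairs cannot be told apart. AC122252.4 and AC122252.1 overlap Dusp1 on its own strand, where strand would not separate the reads.

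The Dusp5 promoter is shown as a contrast to Dusp1, because it held no cAMP response element but 2 CArG boxes side by side. They begin 82 and 72 bases before the start. A share of 0.0183% of RefSeq windows held 2 or more. Capitals mark both in the sequence at chr19:53528895-53529108, plus strand, without the last 36 bases, which GENCODE annotates as 5′ UTR.
Dusp5 promoter: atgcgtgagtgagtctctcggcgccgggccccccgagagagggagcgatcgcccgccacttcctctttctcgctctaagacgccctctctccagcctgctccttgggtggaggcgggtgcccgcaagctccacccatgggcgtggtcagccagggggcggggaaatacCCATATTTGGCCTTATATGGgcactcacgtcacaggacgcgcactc

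Dusp6 and Dusp7 encode cytoplasmic phosphatases that are selective for ERK, and Dusp6 is known as a transcriptional target of ERK signalling. Dusp6 (chr10:99263231-99267489, plus strand) had 6.04, 5.59 and 5.73 log2 CPM after saline and 6.08, 6.00 and 6.07 after methamphetamine. The 3 methamphetamine libraries were nearly level (SD 0.041), and only saline replicate 1 reached them. The limma change was 0.27 ± 0.17 (SE; unadjusted p 0.148), with 0.12 among set A libraries and 0.49 among set B libraries. The change was 0.17 without saline replicate 2 (unadjusted p 0.369) and 0.39 without saline replicate 1 (unadjusted p 0.0667). Since only saline replicate 1 reached the methamphetamine values, leaving it out necessarily ended the overlap. In that setting 4.22% of all genes were higher without overlap. Dusp7 (chr9:106368632-106375724, plus strand) had 6.72, 6.78 and 7.07 log2 CPM after saline and 6.76, 6.98 and 6.93 after methamphetamine. All 3 methamphetamine values lay inside the saline range, and the 95% interval of the change (limma, 0.03 ± 0.16) ran from -0.33 to 0.39.

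Dusp8, Dusp10 and Dusp16 encode phosphatases that prefer JNK and p38 over ERK. Dusp8 (chr7:142079490-142095843, minus strand) had 8.29, 8.05 and 8.39 log2 CPM after saline and 7.85, 8.27 and 8.01 after methamphetamine. Saline replicates 1 and 3 and methamphetamine replicate 2 were the 3 highest, so the values separated by library set and not by treatment. The limma change of -0.20 ± 0.18 (SE; unadjusted p 0.288) became -0.09 ± 0.13 with the set as a covariate. Set B was lower than set A by a mean of 0.35, and 18.9% of all genes were lower in set B without overlap. The striatal projection neuron markers were lower in set B as well, 6 of 8 without overlap, and their part in the Dusp8 difference was not tested.

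Dusp10 (chr1:184013302-184075636, plus strand) had 2.12, 2.73 and 2.48 log2 CPM after saline and 3.55, 2.48 and 3.34 after methamphetamine, from 15, 31 and 22 reads against 58, 24 and 52. Methamphetamine replicates 1 and 3 were above every saline library, while methamphetamine replicate 2 was inside the saline range. The limma change of 0.68 ± 0.36 (SE; unadjusted p 0.0928) was the largest of the 9 with the widest 95% interval, -0.14 to 1.49. Dusp10 also separated by library set in the other direction from Dusp8, with set B higher by 0.84 on average, as were 19.9% of all genes without overlap. Its change was 0.18 within set A, 0.71 within set B and 0.45 ± 0.28 with the set as a covariate. Dusp16 (chr6:134715468-134792625, minus strand) had 3.58, 3.20 and 3.81 log2 CPM after saline and 3.90, 3.76 and 3.72 after methamphetamine. Saline replicate 3 lay inside the methamphetamine range and the other 2 saline libraries below it, and the limma change was 0.27 ± 0.24 (unadjusted p 0.304). Scaled to library totals in place of the deposited scaling, Dusp16 joined Dusp1 as higher without overlap, as were 3.36% of all genes, and without saline replicate 2 its change was 0.10.

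The promoter of Dusp8 is shown because it held 2 cAMP response elements, which 0.0304% of RefSeq windows did. They begin 107 and 63 bases before the start, and Dusp8 and Dusp1 were the only 2 of the 8 windows with this motif. Capitals mark both elements in the sequence at chr7:142095285-142095534, minus strand.
Dusp8 promoter: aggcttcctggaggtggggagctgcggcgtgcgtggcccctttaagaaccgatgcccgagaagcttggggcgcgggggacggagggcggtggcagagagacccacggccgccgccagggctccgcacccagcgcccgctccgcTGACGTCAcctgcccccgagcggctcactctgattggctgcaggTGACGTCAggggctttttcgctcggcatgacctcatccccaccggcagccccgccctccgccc

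Dusp14 encodes a small, atypical phosphatase without the kinase-binding domain of the other members. Dusp14 (chr11:84048041-84069261, minus strand) had 5.56, 5.0 and 5.33 log2 CPM after saline and 4.97, 5.23 and 5.41 after methamphetamine. The treatments overlapped, with saline replicate 1 the highest and methamphetamine replicate 1 the lowest, and the limma change was -0.09 ± 0.21 (SE; unadjusted p 0.661). Its difference was -0.21 within set A and 0.19 within set B.

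**Figure D2:**
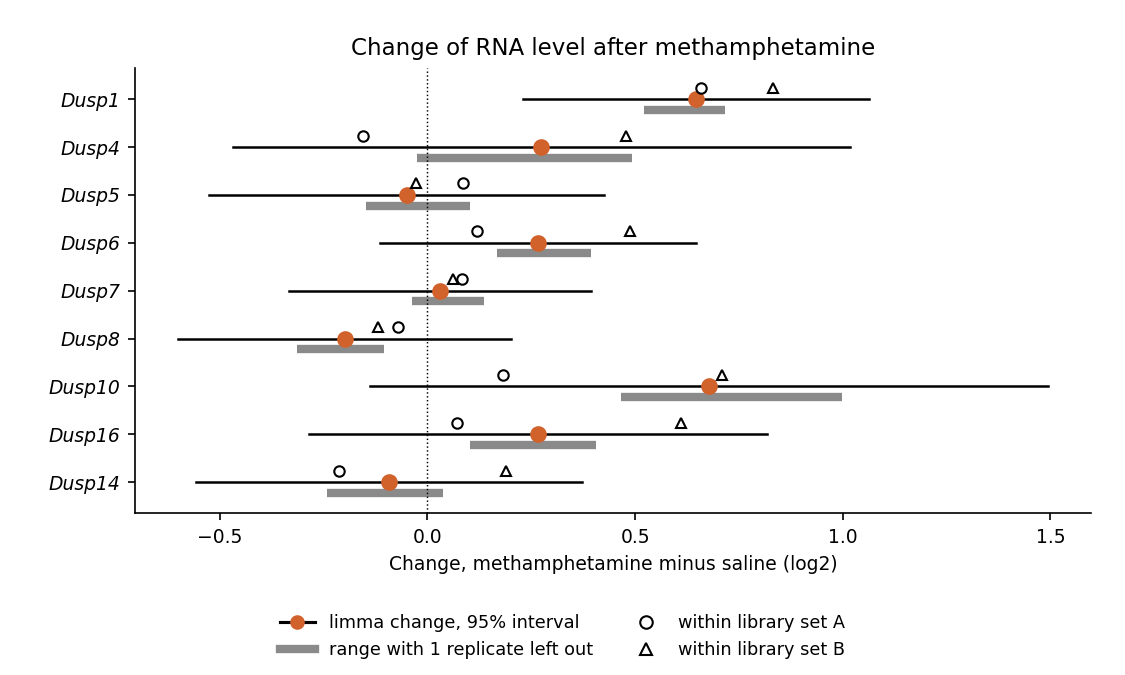
Change of RNA level on the log2 scale (horizontal axis, methamphetamine minus saline) of the 9 genes, with limma estimates and 95% intervals, grey bars for the range when 1 replicate is left out, and open symbols for the difference within each library set. The interval excludes 0 for Dusp1 only (0.23 to 1.06), and the differences within the sets have opposite signs for Dusp4, Dusp5 and Dusp14.

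The genes most like 3 of the phosphatases across the 6 libraries were ranked by Pearson correlation of log2 CPM among the 7853 genes with a mean of at least 4 log2 CPM. These values describe 6 libraries that differ in treatment and in library set. Dusp1 was closest to Pld2 (r = 0.978), Kcmf1 (0.976) and Ldlrad4 (0.954), and 13 genes were above 0.9. Dusp6 was closest to Pank4 (0.976), Hmga1 (0.951) and Hmga1b (0.950), with 12 genes above 0.9. The last pair are near-identical copies whose reads counting can split. Dusp8 was closest to H1f10 (0.998), Plxnd1 (0.997) and Cnbd2 (0.996), and 465 genes were above 0.9. Few genes thus varied like Dusp1 or Dusp6, whereas many varied like Dusp8.

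The pathway around the phosphatases was read from lists of its parts, and the 2 genes of each with the smallest unadjusted p are named. None of the genes on these lists passed the adjusted threshold of limma. Of 23 genes of the MAP kinase cascade, from Ras through ERK, JNK and p38, 0 had an unadjusted p under 0.05, and the median change was 0.09 on the log2 scale. Mapk11 (0.75 ± 0.37, SE, limma unadjusted p 0.0746) and Mapk13 (0.73 ± 0.50, unadjusted p 0.178), both p38 isoforms, had the smallest p. Mapk13 was the only cascade gene whose treatments did not overlap, where 2.44% of all genes were higher without overlap. It lay near the floor, at -0.69 to -0.02 log2 CPM after saline and 0.09 to 0.57 after methamphetamine. Its change was 0.47 with a pseudocount of 2 reads, and the filtered edgeR and DESeq2 runs left it out. Mapk3, which encodes an ERK, had a change of 0.10 ± 0.17. The median of the cascade was -0.10 among set A libraries and 0.03 among set B libraries.

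Of 16 genes for Ras exchange factors, GTPase activators and scaffolds, 0 had an unadjusted p under 0.05 and the median change was -0.04, with Sos2, a Ras exchange factor, at -0.28 ± 0.26 and Mapk8ip3, a JNK scaffold, at -0.19 ± 0.19. Of 17 kinases and factors downstream of ERK and p38, 1 was lower at an unadjusted p under 0.05, the ERK-activated kinase gene Rps6ka3. Rps6ka3 had 5.65, 5.94 and 5.48 log2 CPM after saline and 5.16, 5.45 and 4.79 after methamphetamine, a limma change of -0.56 ± 0.22 (SE; unadjusted p 0.0290). That p was 0.0682 without a variance trend, 0.0715 scaled to library totals and 0.0107 to 0.114 with a replicate left out, above the threshold without saline replicate 1 or 2 or methamphetamine replicate 1 or 3. Its difference was -0.12 within set A and -0.97 within set B. Mapkapk2, a kinase activated by p38, had a change of 0.32 ± 0.18 (unadjusted p 0.107 with limma). Of the 17, 2 were higher without overlap, Mapkapk2 and Elk4, and 2 lower, Rps6ka3 and Rps6ka5, where 6.01% of all genes did not overlap.

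Of 9 other feedback inhibitors and MAP kinase tyrosine phosphatases, 0 had an unadjusted p under 0.05 and the median change was -0.05. Spred1, an inhibitor of Ras signalling, was at -0.26 ± 0.16 (SE) and Ptpn7, a tyrosine phosphatase of ERK and p38, at -0.32 ± 0.31. Ptpn5, the striatum-enriched tyrosine phosphatase, was at -0.12 ± 0.18. Of 15 other dual-specificity phosphatases, 0 had an unadjusted p under 0.05, and Dusp11 (0.46 ± 0.30) and Dusp22 (0.28 ± 0.23) had the smallest. Their median was 0.04.

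Of 20 immediate early genes, a list without Dusp1, 2 had an unadjusted p under 0.05, both higher and without overlap between treatments. Of all 18208 genes, 0.555% were higher at an unadjusted limma p under 0.05 and 2.44% were higher without overlap. The list was chosen with earlier results of these data known, so the comparison is a description and not a test. Btg2, an antiproliferative factor, was at 1.28 ± 0.26 (SE; unadjusted p 0.000717 with limma) and Fos, an AP-1 subunit, at 0.88 ± 0.23 (unadjusted p 0.00428). The list had a median of 0.07, with 14 genes positive and 6 negative, and the median was -0.0052 within set A and 0.36 within set B. For Dusp1 the difference within each set was positive and at least as large as its change over all 6 libraries.

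**Figure D3:**
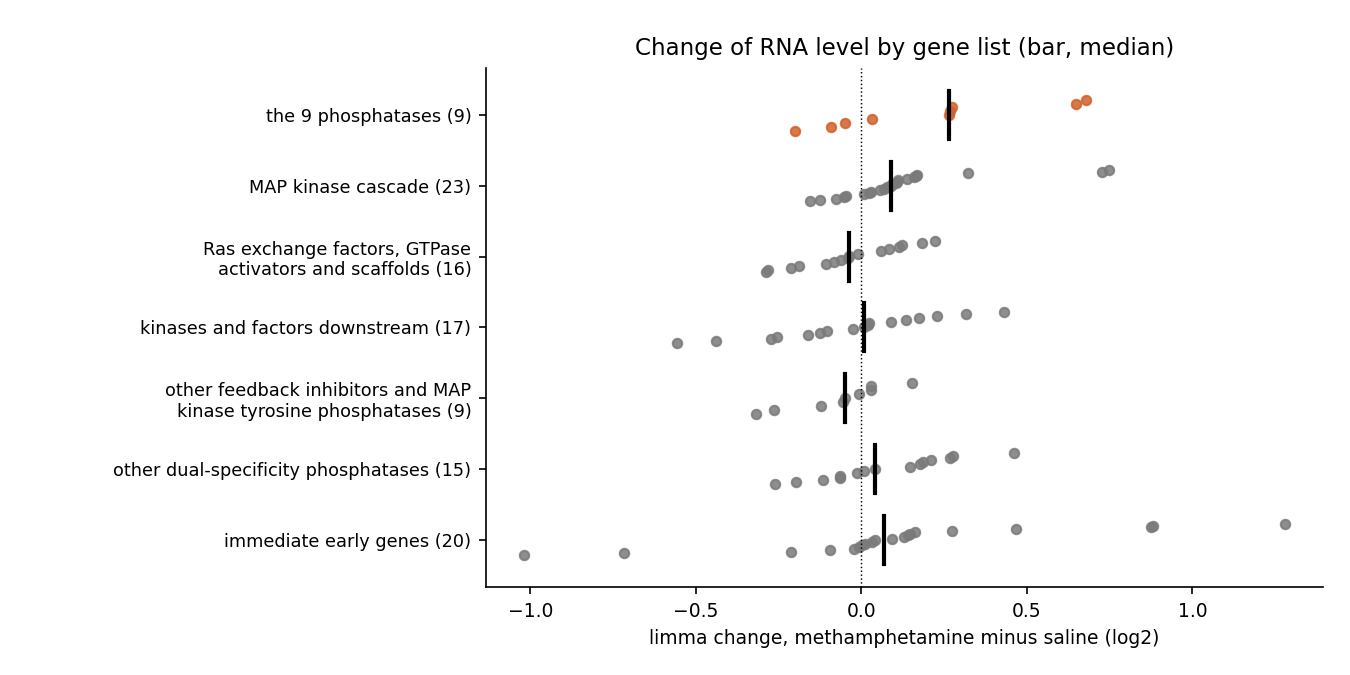
limma change on the log2 scale (horizontal axis) of each gene in 6 pathway lists and of the 9 phosphatases (number of genes in parentheses), with bars for medians. The medians of the pathway lists lie between -0.05 and 0.09, that of the 9 phosphatases at 0.27, and the highest single value is that of Btg2 (1.28).

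Binding by hnRNP H was read next. None of the 9 genes had a peak in the authors' list for methamphetamine or in that for saline, while 38.7% of the 18208 genes had one in at least 1 list. Of the 60 positions of these genes, 0 were in a list, against 9.37% of all 147438 positions. Among other genes named Dusp, 4 had listed peaks. Dusp2 and Dusp27 had 1 in each list, Dusp3 had 3 after methamphetamine and 1 after saline, and Dusp12 had 1, after methamphetamine. Of the 15 other dual-specificity phosphatases listed above, only Dusp2, Dusp3 and Dusp12 were among these. The search by name left out Styx and Styxl1.

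The unlisted positions were sparse. Dusp8 had 18, Dusp7 13, Dusp14 11, Dusp1 5, Dusp5 and Dusp16 4 each, Dusp6 and Dusp10 2 each and Dusp4 1. They lay in introns in 43 cases, in 3′ UTRs in 7, in coding exons in 6, in 5′ UTRs in 2 and in other exons in 2. The median position of these genes held 5 reads over all 6 libraries, against 8 over all positions and 51 over listed ones. No read fell on 7 of the 60, reads of a single library on 13, and reads of all 6 libraries on 1. Outside Dusp10 the 58 positions held 331 reads together, and at most 23 each. Only 1 of the 60, in Dusp10, passed the count filter for a test.

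hnRNP H is known to favour guanine runs, so the 15 positions that lay within 1 exon were searched for them in GENCODE M21 transcripts. A GGG was present in 9 of the 15, against 70.9% of 24074 exonic positions of all genes and 82.4% of the listed ones. A GGGG was present in 3 of the 15, against 36.5% and 49.7%. The median GC content of the 15 was 58%, against 49% over all exonic positions. Below are exonic positions with and without such a run, from mm10, with runs of 3 or more G in capitals. The Dusp1 position (chr17:26507491-26507590, minus strand, 13 reads) lies in an intron of the main transcript Dusp1-202 and in an exon of a transcript that retains it. The Dusp5 position (chr19:53529510-53529609, plus strand, 8 reads) and the Dusp7 position (chr9:106370933-106371032, plus strand, 9 reads) lie in coding exons. For Dusp8, the first position (chr7:142082091-142082190, minus strand, 5 reads) lies in a repetitive coding stretch, and 30 bases are shown of the other, a 3′ UTR position with 13 reads (chr7:142081322-142081351, minus strand).
Dusp1 position 1: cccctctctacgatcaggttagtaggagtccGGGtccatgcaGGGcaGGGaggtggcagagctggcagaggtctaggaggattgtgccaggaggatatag
Dusp5 position 2: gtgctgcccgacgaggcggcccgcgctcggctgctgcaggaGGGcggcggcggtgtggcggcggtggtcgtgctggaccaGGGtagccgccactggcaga
Dusp7 position 6: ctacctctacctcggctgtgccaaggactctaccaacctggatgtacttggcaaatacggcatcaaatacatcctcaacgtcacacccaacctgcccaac
Dusp8 position 6: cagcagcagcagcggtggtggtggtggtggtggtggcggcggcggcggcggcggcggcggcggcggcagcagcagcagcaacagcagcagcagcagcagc
Dusp8 position 3: gtaaGGGGaggaGGGGGaaaccctagtgtc

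The runs stand in the Dusp1, Dusp5 and Dusp8 position 3 sequences, and the Dusp7 position and Dusp8 position 6 hold none. A match is a description of the letters and not of a binding site.

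Summed over all positions of a gene, the CLIP reads of Dusp7, Dusp8 and Dusp10 sufficed for a test between treatments. With edgeR's quasi-likelihood test on gene sums, 0 of these 3 genes and 0.0% of 8177 genes passed the adjusted threshold, and 5.25% (429 genes) had an unadjusted p under 0.05, among them Dusp8 and Dusp10. Dusp8 had 16, 3 and 16 CLIP reads in the saline pools and 25, 24 and 17 in the methamphetamine pools. Scaled to each library's total over all positions, as CLIP CPM, these were 15.2, 7.09 and 9.78 against 27.5, 24.5 and 28.6. Every methamphetamine library lay above every saline library, as in 5.32% of the 8388 genes with at least 60 CLIP reads, 9.28% of which did not overlap in one direction or the other. The edgeR change was 1.28 on the log2 scale (unadjusted p 0.0276, adjusted p 0.882), and it stayed between 1.06 and 1.61 in every alternative run. Its unadjusted p did not stay under 0.05: it was 0.0580 with the replicate number as a block, 0.0584 without a count filter, 0.0785 without saline replicate 2, 0.123 without saline replicate 3 and 0.0635 without methamphetamine replicate 3. No single position made up this sum. The position with the most reads held 12.9% of it, and without that position the change was 1.06 (unadjusted p 0.0754 with edgeR). That position had 5, 0 and 2 reads in saline pools and 2, 1 and 3 in methamphetamine pools. Leaving it out therefore cannot tell whether the difference lies in a few other positions.

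Split by region after these sums had been seen, and so without a test, the Dusp8 reads in exons were 1, 2 and 5 after saline and 18, 17 and 3 after methamphetamine. As CLIP CPM these were 0.949, 4.73 and 3.06 against 19.8, 17.3 and 5.04, highest in methamphetamine replicates 1 and 2. Intron reads were 15, 1 and 11 against 7, 7 and 14, or 14.2, 2.36 and 6.73 against 7.70, 7.14 and 23.5 CLIP CPM, and overlapped between treatments. The 3′ UTR position 3 had 0, 0 and 1 reads in saline pools and 4, 8 and 0 in methamphetamine pools. The adjacent 3′ UTR position 4 had 0, 0 and 2 against 4, 5 and 0. The gene sum without these adjacent positions was not tested.

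**Figure D4:**
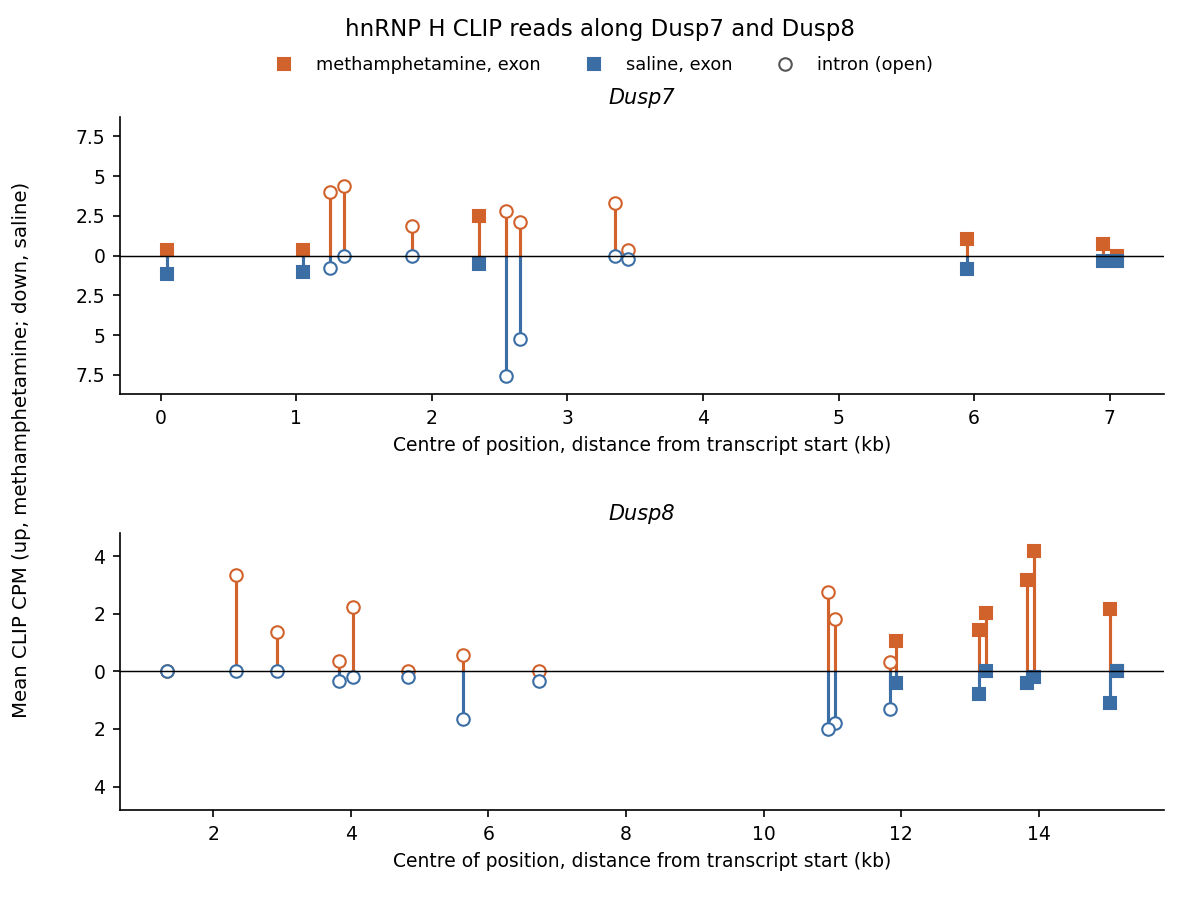
Mean CLIP CPM (vertical axis, methamphetamine upward, saline downward) of each position along Dusp7 and Dusp8 against the distance from the transcript start in kb (horizontal axis), with filled squares for exons and open circles for introns. In Dusp8 the highest methamphetamine value lies in a 3′ UTR position near the end of the gene (position 3, 1 saline read in all), and in Dusp7 the highest saline values lie in a pair of adjacent intron positions.

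Dusp7 had 12, 12 and 23 CLIP reads after saline and 42, 18 and 4 after methamphetamine. As CLIP CPM these were 11.4, 28.4 and 14.1 against 46.2, 18.4 and 6.72, so methamphetamine replicates held both the highest and the lowest value. The edgeR change of 0.48 (unadjusted p 0.524) was -0.44 without methamphetamine replicate 1. In that library 35 of the 42 reads were intronic. The adjacent intron positions 7 and 8 of Dusp7 had no read in that library. Position 7 had 2, 7 and 7 reads in saline pools and 0, 5 and 2 in methamphetamine pools, and position 8 had 2, 4 and 7 against 0, 3 and 2, so the treatments overlapped at both.

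Dusp10 had the most CLIP reads of the 9 genes, 1150, and 95.3% of them fell on 1 position in an intron of the transcript Dusp10-202 (chr1:184033703-184033802, plus strand, mm10). Its centre lies 629 nt before the start of the main transcript Dusp10-201, where 1700056E22Rik is annotated on the opposite strand. Its reads were 992, 11 and 55 after saline and 7, 12 and 19 after methamphetamine. Saline replicate 1 stood far above the other 5 libraries, which overlapped. The edgeR change at this position was -3.99 (unadjusted p 0.0238, adjusted p 0.9998, where 3.35% of 10358 tested positions had an unadjusted p under 0.05), and it was -0.67 without saline replicate 1. Without a count filter, 140449 positions were tested and this one passed the adjusted threshold (-4.55, edgeR adjusted p 6.03e-06). Of the 735 positions with at least 1000 reads in all, 7 had over 90% of them in saline replicate 1. The gene sum followed this position, with an edgeR change of -3.42 (unadjusted p 0.0262) that was -0.12 without saline replicate 1. Without the position the change was 2.23 (edgeR unadjusted p 0.115), although the reads left did not pass the count filter and were kept regardless. The other Dusp10 position had 0, 1 and 10 reads in saline pools and 2, 40 and 1 in methamphetamine pools, most of them in methamphetamine replicate 2.

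The other 6 genes had too few CLIP reads for a test. Dusp1 had 3, 7 and 8 reads in the saline pools and 14, 2 and 4 in the methamphetamine pools, 8.10 ± 7.39 against 8.05 ± 6.78 CLIP CPM (SD, n = 3). The library with the most Dusp1 RNA, methamphetamine replicate 2, had the fewest Dusp1 CLIP reads. Of its 5 positions, 4 lay in introns of the long transcript Dusp1-205 and outside Dusp1-202, the main transcript, whose start is base 26508519 of chromosome 17. Dusp5 had 9 reads after saline and 15 after methamphetamine, Dusp14 had 13 and 15, and Dusp6 had 2 and 8, of which 6 were in methamphetamine replicate 1. Dusp16 had 4, 2 and 5 against 0, 0 and 2, and Dusp4 had 3 in each treatment. A count of 0 allows up to 3 reads in that library, so differences of this size were not detectable at this depth.

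**Figure D5:**
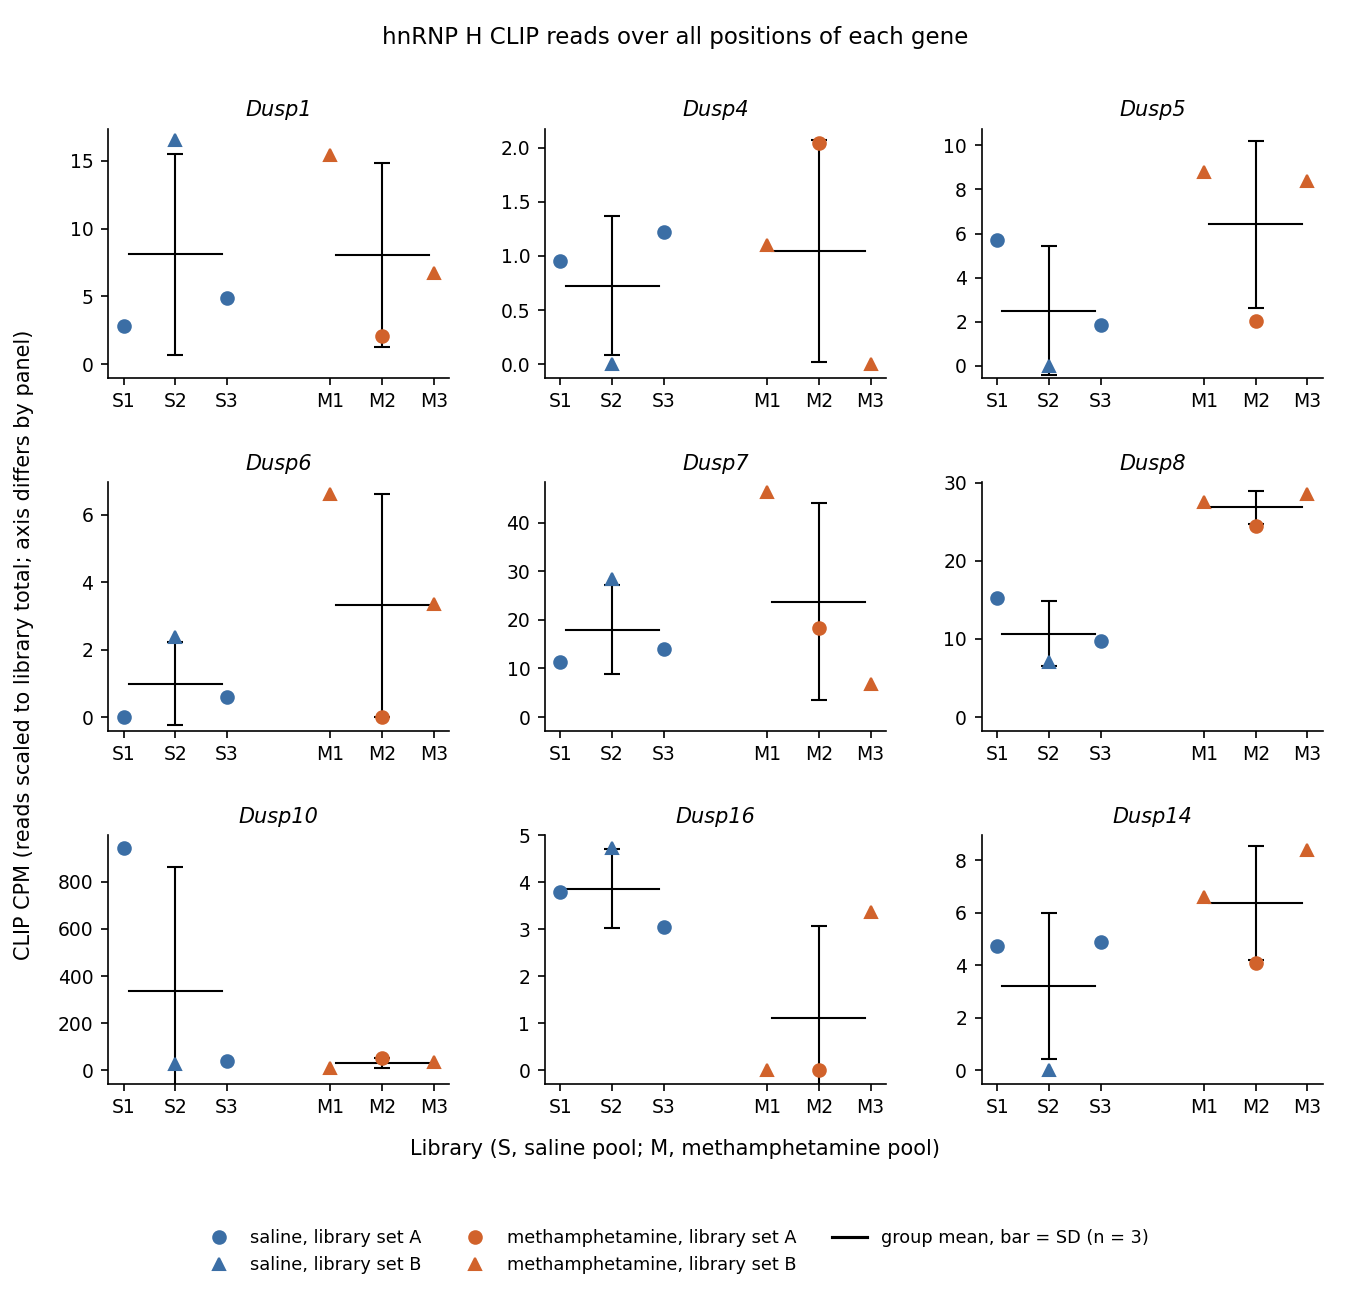
CLIP CPM summed over all positions of each gene (vertical axis, linear, differing by panel), in each of the 6 libraries (horizontal axis), with circles for library set A, triangles for set B, lines for means and bars for SD (n = 3). Dusp8 is the only gene whose methamphetamine libraries (24.5 to 28.6) all lie above its saline libraries (7.09 to 15.2), and Dusp10 is led by saline replicate 1 (942).

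CLIP reads were then set against the RNA of the same pool. The log2 difference of CLIP and RNA-seq CPM for Dusp8 was -4.32, -5.0 and -5.05 after saline and -3.04, -3.62 and -3.13 after methamphetamine. All 3 methamphetamine pools lay above the saline pools, as in 4.67% of 13220 genes, and 8.0% did not overlap in either direction. The limma change was 1.53 ± 0.68 (SE; unadjusted p 0.0519, adjusted p 0.998), beside a median of 0.11 over all genes, and 0.0% of genes passed the adjusted threshold while 3.72% had an unadjusted p under 0.05. For Dusp8, mean RNA was lower and mean CLIP higher after methamphetamine, and neither difference passed an adjusted threshold. Dusp7 changed by 0.10 relative to RNA and Dusp10 by -2.63, which was -0.88 without saline replicate 1.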

How the data were processed

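RNA-seq values are log2 CPM deposited by the authors, on the voom scale per the labels, with an offset of 0.5 reads. In each library 100% of the values inverted to whole reads (tolerance 0.01), and the edgeR and DESeq2 alternatives used those reads. The CLIP count table deposited by the authors had 172271 lines, from which 147438 distinct positions were kept, 1 line each. The deposited peak lists, 1 per treatment over pooled replicates, hold a score and p-values and q-values, which were used here only for whether a position was listed. The submitters' processing notes name Trimmomatic, STAR, UMI-tools, bedtools, Subread, featureCounts, limma, edgeR and the build mm10, with no roles. Whether counts are of reads or deduplicated molecules and whether strand was used are not given in the sources used here. Recovered reads per RNA-seq library ran from 3935160 to 5091839 and CLIP reads from 423057 to 1635338.

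Tests covered all features: limma 3.58.1 (trend) on log2 CPM and on log2 CLIP CPM (gene sum plus 0.5 reads) minus RNA-seq log2 CPM per pool, and edgeR 4.0.16 (TMM, filterByExpr, quasi-likelihood) on CLIP counts, in R 4.3.3, with Benjamini-Hochberg adjustment at 0.05 and DESeq2 1.42.0 as an alternative. CLIP CPM is relative to a library's reads over all positions. CLIP gene sums had a biological coefficient of variation of 49.3% and RNA-seq reads one of 24.8%. On simulated data of 13299 genes, 200 changes of 2 (log2) gave 185 limma calls among them and 8 among unchanged genes, and 200 changes of 1 gave 0. For CLIP gene sums edgeR recovered 13 of 200 changed by 2 among 7734 genes and 198 of 200 changed by 4 among 7646.

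Per the labels each replicate pooled 4 mice; that no mouse entered more than 1 pool is not stated. Same-numbered pools of the treatments lay in opposite library sets and did not vary together, so numbers were not used as pairs in the main fits. Whether the pools were handled in pairs is not settled by that. The members and lists were chosen with earlier results of these data known. All 9 members are described, with the 3 genes most like Dusp1, Dusp6 and Dusp8 and the 2 genes per pathway list with the smallest unadjusted p, together with Mapk3, Ptpn5, Elk4 and Rps6ka5, which were named outside this rule after their values were seen. A gene added in the same way is not reported here. Of the list genes, Mapksp1 and Spry3 had no row by that symbol. Intervals cover the stated error only. Promoters are from RefSeq (GRCm38.p6), transcripts from GENCODE M21, and intron positions were not analysed here for sequence. Alternatives covered scaling, filters, pseudocounts, the test, the replicate block, the library set and each replicate left out. The library set differences, gene sums without the top position and overlap counts under other settings were chosen after seeing the data.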

Additional observations from a re-analysis of the deposited data

How the results depend on the processing

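Of 381 values over 28 results, 361 kept their direction and, where tested, their side of the adjusted threshold. That count did not take the unadjusted p into account. The unadjusted p crossed its threshold in some alternatives, among them those of Rps6ka3, Mapk11, Dusp10 RNA and the Dusp8 CLIP sum. The counts of 0 genes or positions past the adjusted threshold held in every alternative except CLIP positions without a count filter, where 414 of 140449 passed, Dusp10 position 2 among them (-4.55, edgeR adjusted p 6.03e-06). The unadjusted RNA-seq count ran from 81 (DESeq2) to 958 (without methamphetamine replicate 2).

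Phosphatase genes higher without overlap numbered 1 as deposited, 2 scaled to library totals and 1 to 3 with a replicate left out, with Dusp1 in each of these settings. With a replicate left out, 4.22% to 9.44% of all genes were higher without overlap and 5.46% to 13.3% lower, and Dusp8 was lower without overlap when saline replicate 2 or methamphetamine replicate 2 was left out (13.3% of all genes in each case). Dusp5 was at 0.033 scaled to library totals, 0.030 with the set as a covariate and 0.086 within set A. Dusp7 was at -0.0068 with DESeq2, Dusp4 at -0.16 within set A and Dusp14 at 0.19 within set B. The Dusp10 CLIP sum was at 2.23 without its top position, with reads that did not pass the count filter. With a replicate left out, the RNA-seq change ran from -0.026 to 0.49 for Dusp4, -0.15 to 0.10 for Dusp5, -0.038 to 0.14 for Dusp7 and -0.24 to 0.037 for Dusp14. Without a change of sign it ran from 0.17 to 0.39 for Dusp6, -0.31 to -0.10 for Dusp8, 0.47 to 1.00 for Dusp10, 0.10 to 0.41 for Dusp16 and 0.40 to 1.04 for Mapk11. The unadjusted limma p fell under 0.05 for Dusp10 without methamphetamine replicate 2 (0.0167) and for Mapk11 without saline replicate 2 (0.0213). The change ran for Dusp7 CLIP from -0.44 to 0.90 as a gene sum and -0.62 to 0.78 relative to RNA. The causes of these changes of sign were not tested.

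With the replicate number as a block, 0 genes passed the adjusted threshold, 144 had an unadjusted p under 0.05, and the limma p of Dusp1 was 0.0347 for the same change of 0.65. Deviations of same-numbered pools correlated at -0.35, -0.82 and -0.49 in RNA-seq and -0.37, -0.55 and -0.089 in CLIP. Every same-numbered pair joins a set A and a set B library, so these correlations cannot tell whether pools were handled in pairs. Alternatives that use listed positions only or another list threshold or overlap gave no value for these genes, which have no listed position. With 3 pools per treatment, changes of 1 on the log2 scale were not detectable in any simulated comparison. The simulations held no library sets, so the limit in the real libraries can differ.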
